A study of Mus musculus with 6 samples.

Results

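The Hox genes encode the homeodomain transcription factors that give cells along the body axis and the limbs their positional identity. They were taken as the genes with symbols from the Hoxa, Hoxb, Hoxc or Hoxd cluster among array probe sets that the platform annotation assigns to a single gene. That rule found 37 Hox genes of the 19938 genes on the arrays, each with 1 probe set. Hoxb8 lay on a probe set shared with Hoxb7. The cells were dermal cells cultured from neonatal skin of C57BL/6 mice, with total RNA taken after 2 days of culture and hybridised to 6 one-colour Affymetrix arrays. The 3 arrays titled DMSO, after the solvent, stand for culture without the compounds, and the 3 titled FR for culture with forskolin and RepSox, each at 20 µM. Forskolin is a plant diterpene that raises cyclic AMP by switching on adenylyl cyclase. RepSox blocks ALK5, the kinase through which TGF-β signals. Nothing in the labels tells whether replicates are separate animals or cultures, which body region gave the skin, or how many animals were pooled.

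In mammals the Hox genes lie in the clusters A to D, and members with the same number in different clusters are paralogues. Within a cluster the low numbers lie at the 3′ end and are used from the hindbrain and neck on, and the high numbers at the 5′ end are used in the hind trunk, the tail and the outer limb. Dermal fibroblasts are known to keep part of this pattern in culture, so that the set of Hox genes they express reflects where in the skin they came from. Polycomb proteins keep unused Hox genes silent, Trithorax proteins keep used ones active, and proteins of the TALE homeodomain class, the Pbx, Meis and Pknox proteins, bind DNA together with Hox proteins.

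Every level below is a log2 RMA value, and every change is the mean of the FR arrays minus the mean of the DMSO arrays, with n = 3 per group. A change was called where limma's adjusted p, taken over all 19938 genes, was under 0.05. Of all genes 27.9% were called, 13.4% higher and 14.5% lower, and every count of called genes below is to be read beside these shares. On the 6 arrays the markers of fibroblasts were high, with all 12 above background and list means of 10.66 to 10.70 in DMSO and 10.54 to 10.61 in FR. Of these 12, 5 rose and 6 fell. Markers of fibroblasts (91.7%), keratinocytes (78.6%), muscle (83.3%) and fat (100%) were called well above the share of all genes. The melanocyte (57.1%) and immune (42.9%) shares were also above it. Of 14 keratinocyte markers 11 rose and none fell, with list means of 6.01 to 6.09 in DMSO and 6.88 to 7.02 in FR, and Krt1, Krt15 and Epcam were not above background. Of 12 skeletal muscle markers 10 rose (5.82 to 5.87 in DMSO and 6.64 to 6.76 in FR; Myf5, Des, Chrna1 and Cdh15 not above background), and all 6 adipocyte markers rose (7.07 to 7.19 in DMSO and 9.0 to 9.19 in FR, all above background). Of the melanocyte, Schwann cell, endothelial and immune markers 3 of 7, 1 of 4, 2 of 6 and 3 of 7 rose, and 1 melanocyte marker, Mitf, fell. Mitf fell by 1.19 on the brighter of its probe sets, while the other gave -0.06 (limma adjusted p = 0.739 over all probe sets with 1 symbol). The Schwann cell and endothelial shares, 25.0% and 33.3%, lay near that of all genes. Their list means were 5.38 to 5.45, 5.68 to 5.86, 4.99 to 5.07 and 5.18 to 5.29 in DMSO and 5.43 to 5.52, 5.88 to 6.09, 5.27 to 5.33 and 5.41 to 5.50 in FR, and of the same lists 4 of 7, 2 of 4, 5 of 6 and 5 of 7 markers were not above background. The part of these cells in the Hox changes was not tested, and in bulk RNA fewer cells of a type and less RNA per cell cannot be told apart.

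Background was set by 1015 olfactory receptor (Olfr) genes, which encode odorant receptors of the nose. The 95th percentile of their means was 5.66 in DMSO and 5.92 in FR. A Hox gene was taken as above background where the mean of at least 1 group lay above that level in the same group, which held for 28 of the 37. The Olfr genes themselves were higher with FR by a median of 0.14, against a median change of 0.05 over all genes.

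Hox genes from all positions were above background, and those from the middle of the clusters without exception. All 14 genes with numbers 4 to 8 were above it, as were 10 of the 16 genes numbered 9 to 13 and 4 of the 7 numbered 1 to 3. The 9 that were not are Hoxa2, Hoxa3 and Hoxd1 from the 3′ ends and Hoxa13, Hoxb13, Hoxc11, Hoxc12, Hoxc13 and Hoxd12 from the 5′ ends. Hoxa2 acts in the hindbrain and the face, Hoxa13 in the outer limb and Hoxb13 at the tail end, and Hoxc13 is needed for hair and nail keratins. By cluster, 7 of 10 Hoxa, 8 of 9 Hoxb, 6 of 9 Hoxc and 7 of 9 Hoxd genes were above background. The levels of different genes rest on different probes and are not ranked against each other.

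**Figure D1:**
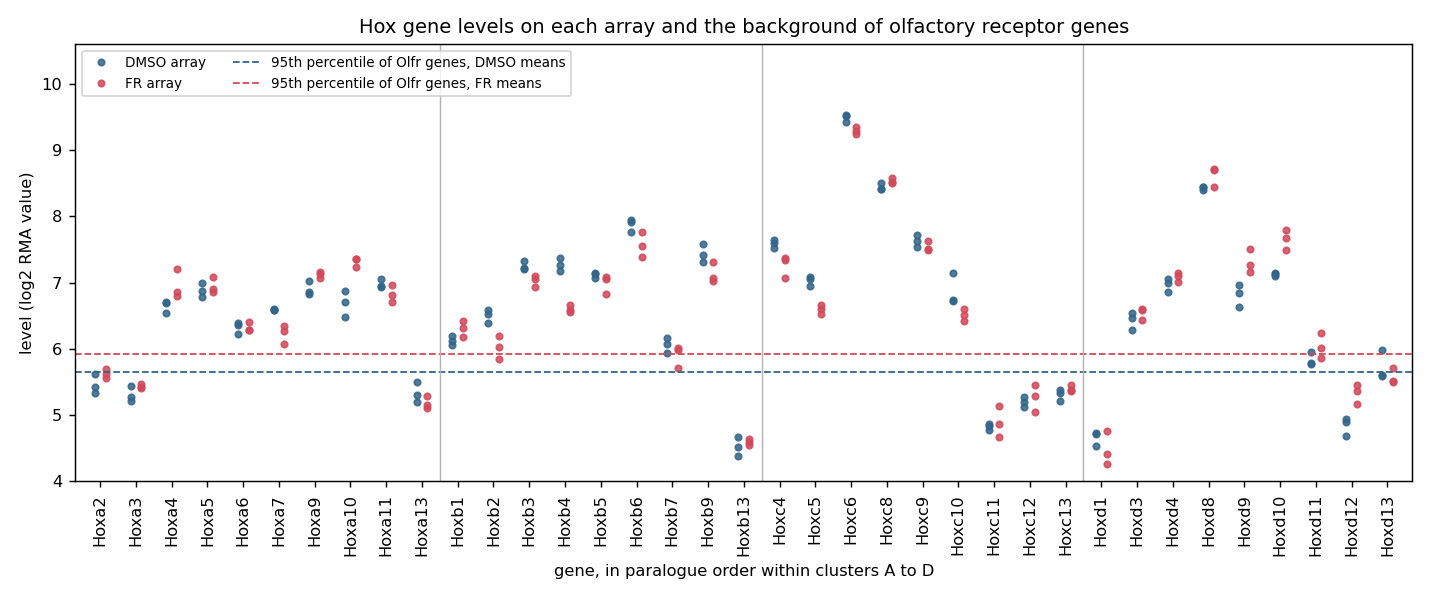
Levels (log2 RMA value, vertical axis) of the 37 Hox genes on each of the 3 DMSO and 3 FR arrays, 1 point per array, with genes in paralogue order within clusters A to D; the dashed lines are the 95th percentiles of the Olfr gene means, 5.66 in DMSO and 5.92 in FR. Numbers 4 to 8 lie above the lines in each cluster apart from Hoxb7 in FR, whose mean was 5.90.

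Well above the background were the trunk genes Hoxc6, Hoxc8 and Hoxd8, none of which was called as deposited. Hoxc6, which acts in the thoracic region, read 9.53, 9.42 and 9.51 on the DMSO arrays and 9.28, 9.25 and 9.35 on the FR arrays. Its 3 FR arrays lay below the 3 DMSO arrays, and the change of -0.19 had an adjusted p of 0.101 (SE 0.082, limma). It was called lower with a robust variance trend (adjusted p = 0.034) and with the FR arrays shifted by the median Olfr change (-0.33, adjusted p = 0.00934). Hoxc8, another thoracic gene, read 8.50, 8.41 and 8.42 on the DMSO arrays and 8.58, 8.52 and 8.50 on the FR arrays, with an adjusted p of 0.437 (change 0.09, SE 0.08). Its lowest FR array was level with its highest DMSO array. Hoxd8 read 8.45, 8.44 and 8.40 on the DMSO arrays and 8.71, 8.45 and 8.70 on the FR arrays (change 0.19, SE 0.094, adjusted p = 0.148). FR replicate 2 was level with the highest DMSO array, and without that array Hoxd8 was called (0.28, adjusted p = 0.0392). Quantile normalization and cyclic loess between arrays also called Hoxd8, at adjusted p of 0.0477 and 0.0403.

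Near the background line were Hoxd13, Hoxb7, Hoxd11 and Hoxb1, which were not above the 99th percentile of the Olfr genes. Hoxb2 was near the line in FR alone, with a mean of 6.02 beside 5.92. Hoxd13, a gene of the digits, had means of 5.73 ± 0.22 in DMSO and 5.58 ± 0.12 in FR, above the background of its group in DMSO alone, and DMSO replicate 2, at 5.98, carried it: without that array it was not above background. Hoxb7 had means of 6.06 ± 0.12 in DMSO and 5.90 ± 0.16 in FR, also above the level of its group in DMSO alone. Just under the line, Hoxa2 had means of 5.46 ± 0.14 in DMSO and 5.62 ± 0.066 in FR. With the 99th percentile of the Olfr genes 24 Hox genes were above background, with the 90th 32, and with vomeronasal receptor genes as background 34.

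The FR arrays were compared with the DMSO arrays for each gene. Of the 37 Hox genes 11 changed, 7 lower and 4 higher, and the changes of the 10 called above background ran from 1.59-fold lower for Hoxb4 to 1.55-fold higher for Hoxa10. The Hox share, 29.7%, lay near the 27.9% called over all 19938 genes (13.4% higher and 14.5% lower). Among genes above background, 10 of 28 Hox genes were called (35.7%), against 36.4% of all such genes; 3 of the 28 were higher and 7 lower, beside 14.1% and 22.3% of those genes. The median change of the 37 was 0.06, beside 0.05 over all genes, and that of the 28 above background was -0.11, beside -0.02 over all genes above background. Groups did not overlap for 16 of the 37, against 43.9% of all genes. At an unadjusted limma p under 0.05 there were also 16 of the 37, against 7973 of all 19938 genes. The Hox family as a whole was called about as often as other genes. The split of the calls into higher and lower depends on the scaling. It was 4 and 7 as deposited, 4 and 9 with array medians centred, 7 and 6 with quantile normalization and 7 and 5 with cyclic loess. With the FR arrays shifted down by the median Olfr change it was 4 and 14. That shift added Hoxa11, Hoxa13, Hoxb3, Hoxb5, Hoxb6, Hoxb7 and Hoxc6 as lower. No called Hox gene changed its sign under any of these. Tested against a log2 change of 0.5 instead of 0, 0 Hox genes and 842 of all genes were called by limma's treat test, in which 1 Hox gene, Hoxb4, had an unadjusted p under 0.05 (0.0373, adjusted p = 0.584).

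**Figure D2:**
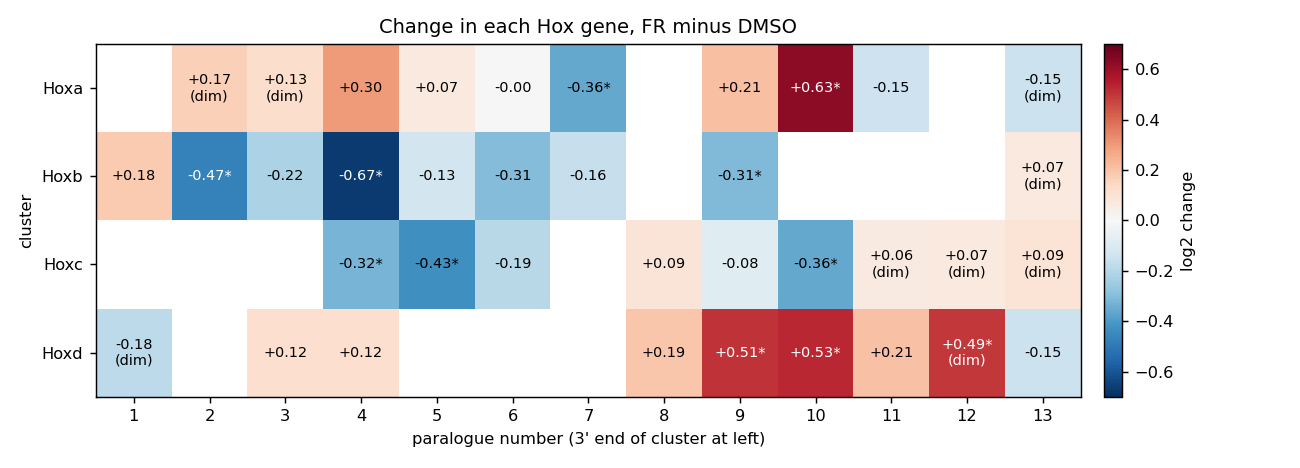
Change of each Hox gene as FR mean minus DMSO mean (log2 scale, colour and printed value), with the clusters as rows and the paralogue number as columns; a star marks an adjusted p under 0.05 (limma), "dim" a gene not above background, and white fields are genes not measured by the rule or not in the mouse genome. The called changes in the Hoxb and Hoxc rows are negative, those in the Hoxd row positive, and the Hoxa row holds 1 of each.

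The calls were divided between the clusters. In Hoxb, on chromosome 11, 3 of 9 genes fell and none rose (median change -0.22), and 7 of the 9 had a change below 0. In Hoxc, on chromosome 15, 3 of 9 fell and none rose (median -0.08). In Hoxd, on chromosome 2, 3 of 9 rose and none fell (median 0.19), with 7 of 9 above 0. In Hoxa, on chromosome 6, 1 of 10 rose and 1 fell (median 0.10). By position, 0 of 7 genes numbered 1 to 3 rose and 1 fell, 0 of 14 numbered 4 to 8 rose and 4 fell, and 4 of 16 numbered 9 to 13 rose and 2 fell. The shares called were 33.3% in each of Hoxb, Hoxc and Hoxd and 20.0% in Hoxa, and 14.3%, 28.6% and 37.5% by position, beside 27.9% of all genes. Of the genes above background, 1 of 4 numbered 1 to 3, 4 of 14 numbered 4 to 8 and 5 of 10 numbered 9 to 13 were called. The share among all genes above background was 36.4%. Of the 3 Hoxd rises 1, that of Hoxd12, was in a gene under the background of both groups. The falls of Hoxb9, Hoxc4 and Hoxc10 were lost in 10, 8 and 7 of 17 alternatives tested against a change of 0. These are counts, and the difference between clusters or positions was not tested.

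The largest fall was that of Hoxb4, known for its use in blood stem cells and in the neck region. Its level was 7.18, 7.27 and 7.37 on the DMSO arrays and 6.56, 6.59 and 6.66 on the FR arrays. All FR arrays lay below all DMSO arrays by a wide margin, with means of 7.27 ± 0.093 in DMSO and 6.60 ± 0.052 in FR (change -0.67, SE 0.085, adjusted p = 0.00018). Hoxb2, a hindbrain gene, read 6.53, 6.58 and 6.39 on the DMSO arrays and 6.19, 6.03 and 5.85 on the FR arrays. It was 1.39-fold lower in FR (change -0.47, SE 0.10, adjusted p = 0.00617), and FR replicate 3 fell below the FR background level. Without moderation of the variance across genes Hoxb2 was not called (adjusted p = 0.0672). Hoxb9, a gene of the rib-bearing trunk, read 7.42, 7.59 and 7.31 on the DMSO arrays and 7.30, 7.07 and 7.02 on the FR arrays, so that the highest FR array lay just under the lowest DMSO array. Its fall by 0.31 was at the edge of the threshold (SE 0.11, adjusted p = 0.0498). It did not hold without DMSO replicate 1 (adjusted p = 0.0978), DMSO replicate 2 (0.18), FR replicate 2 (0.127) or FR replicate 3 (0.148), nor with quantile normalization (0.115), cyclic loess (0.0977), array weights (0.0612), ordinary variance (0.164) or every probe set tested (0.0527).

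The other Hoxb genes were not called. Hoxb3 read 7.22, 7.32 and 7.21 on the DMSO arrays and 6.93, 7.10 and 7.05 on the FR arrays, without overlap between the groups (change -0.22, adjusted p = 0.0802). It was called lower with array medians centred (0.0369) and with genes not above background left out (0.0421). Hoxb6 read 7.76, 7.95 and 7.92 on the DMSO arrays and 7.39, 7.77 and 7.55 on the FR arrays, where FR replicate 2 stood within the DMSO range. Its change was -0.31 with an adjusted p of 0.0581, and without FR replicate 2 it was called (-0.41, adjusted p = 0.0186). Hoxb6 was also called lower with array medians centred (0.0227), genes not above background left out (0.0274) and a robust variance trend (0.0265). Hoxb5 read 7.07, 7.13 and 7.14 on the DMSO arrays and 7.08, 7.05 and 6.82 on the FR arrays (change -0.13, adjusted p = 0.325), and FR replicate 3 was the low array. Hoxb7 read 6.08, 6.17 and 5.93 on the DMSO arrays and 5.71, 5.98 and 6.00 on the FR arrays, with overlapping groups (change -0.16, adjusted p = 0.271). The probe set shared by Hoxb8 and Hoxb7 read 6.68, 7.01 and 6.93 in DMSO and 6.49, 6.38 and 6.39 in FR. In a fit over all 35556 probe sets it was lower by 0.45 in FR (adjusted p = 0.0338, limma), and its signal cannot be assigned to either gene. Hoxb1, at the 3′ end, had a change of 0.18 (adjusted p = 0.16), and Hoxb13, at background, of 0.07.

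In Hoxc the neighbours Hoxc4 and Hoxc5, genes of the neck and upper trunk, fell, and so did Hoxc10, a gene of the lower back and hind limb. Hoxc5 read 7.05, 7.08 and 6.95 on the DMSO arrays and 6.66, 6.52 and 6.60 on the FR arrays. The groups were well apart, with means of 7.03 ± 0.07 in DMSO and 6.59 ± 0.073 in FR (1.35-fold lower, log2 SE 0.085, adjusted p = 0.00325). Hoxc4 read 7.59, 7.64 and 7.52 on the DMSO arrays and 7.34, 7.07 and 7.37 on the FR arrays, and FR replicate 2 was its lowest array. It was 1.25-fold lower (change -0.32, SE 0.099, adjusted p = 0.0319), and did not pass without DMSO replicate 1 (adjusted p = 0.0833), 2 (0.102) or 3 (0.0571) or FR replicate 2 (0.0894), nor with quantile normalization (0.129), cyclic loess (0.112) or ordinary variance (0.114).

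Hoxc10 read 6.72, 7.14 and 6.74 on the DMSO arrays and 6.59, 6.51 and 6.43 on the FR arrays. DMSO replicate 2 stood above the other DMSO arrays, and the fall by 0.36 (SE 0.12, adjusted p = 0.0438) rested on it: without that array the change was -0.22 (adjusted p = 0.159). It failed too without FR replicate 1 (adjusted p = 0.0517), 2 (0.095) or 3 (0.131) and with cyclic loess (0.0525), array weights (0.0735) or ordinary variance (0.181). Hoxc9 read 7.63, 7.72 and 7.54 on the DMSO arrays and 7.49, 7.63 and 7.51 on the FR arrays (change -0.08, adjusted p = 0.492), with overlapping groups. The background genes Hoxc11, Hoxc12 and Hoxc13 had changes of 0.06, 0.07 and 0.09, with adjusted p from 0.425 to 0.704.

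In Hoxa the fall was that of Hoxa7, a gene of the thoracic region. It read 6.59, 6.58 and 6.58 on the DMSO arrays and 6.26, 6.34 and 6.07 on the FR arrays. The DMSO arrays were close together and the FR arrays lay below them, 1.28-fold on average (change -0.36, SE 0.091, adjusted p = 0.0141). Without moderation of the variance it was not called (adjusted p = 0.059).

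Hoxa10, known for its part in patterning the lower back and the uterus, had the largest rise in the family. It read 6.48, 6.88 and 6.70 on the DMSO arrays and 7.36, 7.35 and 7.24 on the FR arrays. The FR arrays were close together and above every DMSO array, with means of 6.69 ± 0.20 in DMSO and 7.32 ± 0.069 in FR (change 0.63, SE 0.11, adjusted p = 0.00132). Its 3′ neighbour Hoxa9 read 6.83, 6.86 and 7.02 on the DMSO arrays and 7.13, 7.07 and 7.15 on the FR arrays, without overlap. The change of Hoxa9 was 0.21 and missed the threshold (SE 0.086, adjusted p = 0.0931), which it passed with quantile normalization (0.0403) and cyclic loess (0.0478). Its 5′ neighbour Hoxa11, a gene of the forearm and lower leg, read 6.94, 7.05 and 6.93 on the DMSO arrays and 6.96, 6.81 and 6.70 on the FR arrays and was not called (change -0.15, adjusted p = 0.26).

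The neighbours Hoxd9 and Hoxd10, which pattern the lower trunk and the limbs, both rose. Hoxd10 read 7.14, 7.12 and 7.10 on the DMSO arrays and 7.50, 7.79 and 7.67 on the FR arrays. The DMSO arrays were close together and every FR array was higher, with a 1.44-fold rise (change 0.53, SE 0.093, adjusted p = 0.00166). Hoxd9 read 6.63, 6.96 and 6.83 on the DMSO arrays and 7.26, 7.51 and 7.17 on the FR arrays, again without overlap, and rose 1.42-fold (change 0.51, SE 0.12, adjusted p = 0.00802; 0.0927 without moderation of the variance). Further 5′, Hoxd11 read 5.95, 5.77 and 5.78 on the DMSO arrays and 6.02, 6.24 and 5.86 on the FR arrays, with overlapping groups (change 0.21, adjusted p = 0.183).

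Hoxd12, a gene of the outer limb, was called higher although its means lay under the background of both groups. It read 4.89, 4.93 and 4.68 on the DMSO arrays and 5.17, 5.36 and 5.46 on the FR arrays (change 0.49, SE 0.10, adjusted p = 0.00511). No fold is given for a gene under background. The median change of the 7497 genes not above background was 0.12. The call held with the FR arrays shifted by the median Olfr change (adjusted p = 0.0241) and was lost without moderation of the variance (0.064). At the ends of the cluster, the value for Hoxd13 was -0.15 (adjusted p = 0.362) and that for Hoxd1 -0.18 (adjusted p = 0.301). Without FR replicate 2, Hoxd1 was called at -0.33 (adjusted p = 0.0459), within the background range.

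**Figure D3:**
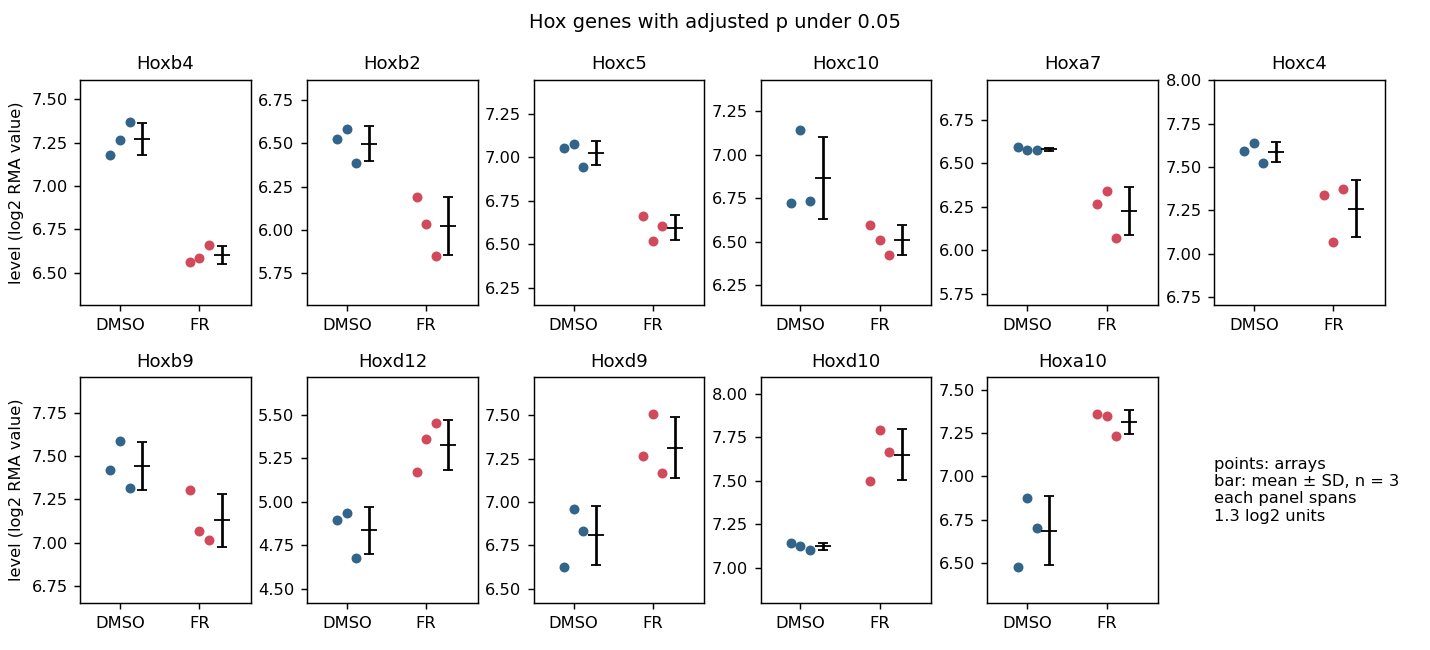
Levels (log2 RMA value) of the 11 Hox genes with an adjusted p under 0.05 on each of the 3 DMSO and 3 FR arrays, 1 point per array, with black bars for the mean ± SD; panels are ordered from the largest fall, Hoxb4, to the largest rise, Hoxa10, and span the same range of log2 units. In each of the 11 panels the points of the groups do not overlap, with the smallest gap for Hoxb9.

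Called paralogues with the same number went in opposite directions in groups 9 and 10. In group 4 Hoxb4 and Hoxc4 fell, while Hoxa4 read 6.55, 6.70 and 6.69 on the DMSO arrays and 6.85, 7.20 and 6.79 on the FR arrays, all FR arrays above all DMSO arrays, and was not called (change 0.30, adjusted p = 0.0733). FR replicate 2 was the high array of Hoxa4, and without it the change was 0.17. Hoxd4 read 6.99, 7.05 and 6.86 on the DMSO arrays and 7.15, 7.10 and 7.00 on the FR arrays (change 0.12, adjusted p = 0.341). In group 5 Hoxc5 fell, while Hoxa5, a gene of the lung and neck region, read 6.87, 6.78 and 6.99 on the DMSO arrays and 6.85, 7.09 and 6.90 on the FR arrays, with mixed groups (change 0.07, adjusted p = 0.634). In group 9 Hoxd9 rose and Hoxb9 fell, while Hoxa9 and Hoxc9 were not called, and in group 10 Hoxa10 and Hoxd10 rose and Hoxc10 fell, with the limits given for Hoxb9 and Hoxc10. For the remaining genes, Hoxa2, Hoxa3, Hoxa6, Hoxa13 and Hoxd3, the changes lay between -0.15 and 0.17, and their adjusted p between 0.217 and 0.998. Hoxa4 and Hoxa13 were called with quantile normalization (adjusted p = 0.0442 and 0.0489), Hoxa4 higher and Hoxa13 lower.

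The promoters of 2 genes that fell and share a number, Hoxb4 and Hoxc4, and of 2 neighbours that rose, Hoxd9 and Hoxd10, are shown as the 250 bases before the start of each gene. They come from RefSeq on GRCm38.p6, on the plus strand at chr11:96318017-96318266, chr15:103034145-103034394, chr2:74697513-74697762 and chr2:74691641-74691890. Capitals mark the letters AGGTCA or their reverse complement TGACCT, the core bound by retinoic acid receptors and other nuclear receptors, which act on Hox genes in the embryo.
Hoxb4: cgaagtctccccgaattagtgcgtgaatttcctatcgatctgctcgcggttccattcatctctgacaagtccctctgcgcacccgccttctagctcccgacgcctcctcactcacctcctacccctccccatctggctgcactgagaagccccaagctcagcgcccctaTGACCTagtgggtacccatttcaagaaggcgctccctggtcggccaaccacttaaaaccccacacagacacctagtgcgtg
Hoxc4: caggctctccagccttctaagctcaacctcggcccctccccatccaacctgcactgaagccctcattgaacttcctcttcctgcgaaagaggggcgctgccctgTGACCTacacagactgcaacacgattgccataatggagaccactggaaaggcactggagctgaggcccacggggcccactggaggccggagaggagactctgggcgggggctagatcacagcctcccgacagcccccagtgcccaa
Hoxd9: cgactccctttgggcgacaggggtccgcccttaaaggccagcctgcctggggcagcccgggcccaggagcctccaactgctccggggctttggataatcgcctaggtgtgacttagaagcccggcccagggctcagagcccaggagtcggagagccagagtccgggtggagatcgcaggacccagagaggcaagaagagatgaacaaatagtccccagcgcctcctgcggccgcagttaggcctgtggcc
Hoxd10: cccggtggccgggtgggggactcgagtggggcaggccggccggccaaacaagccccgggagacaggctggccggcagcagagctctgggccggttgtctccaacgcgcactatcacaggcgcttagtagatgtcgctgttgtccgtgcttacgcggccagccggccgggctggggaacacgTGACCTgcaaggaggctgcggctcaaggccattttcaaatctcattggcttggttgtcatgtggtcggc
The letters were found 1 time each before Hoxb4, Hoxc4 and Hoxd10, at 81, 146 and 69 bases before the start, and 0 times before Hoxd9. They were thus present before genes that fell and before a gene that rose. They were also present before Hoxd3, Hoxd4 and Hoxd8, which were not called and are not shown.

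Motifs were searched on both strands in such windows of all 32851 promoters in the RefSeq table, which hold 23 windows for 21 of the 37 Hox genes. AGGTCA, chosen after the values were seen, was in 6 of the 23 Hox windows (26.1%) and in 14.0% of all windows. These windows belong to Hoxb4 and Hoxc4, which fell, Hoxd10, which rose, and Hoxd3, Hoxd4 and Hoxd8, which were not called. The full cyclic AMP response element TGACGTCA was in 0 of the 23 and in 1.55% of all windows. Its core TGACG, which the full element contains, was in 7 of the 23 (30.4%) and in 17.8% of all. The 7 windows belong to Hoxa5, Hoxa6, Hoxa11, Hoxb1, Hoxd3, Hoxd8 and Hoxd11, none of which was called, beside 29.7% of the 37 Hox genes. Hox genes without a window were not searched, and the share called among those with a window was not counted. The SMAD palindrome GTCTAGAC was in 0 of the 23 and in 0.167% of all. A match says only that these letters are in the window.

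Of the 8 TALE cofactor genes measured, all above background, 1 fell and none rose (12.5%, beside 36.4% of all genes above background; median change -0.01). Meis1, whose protein binds DNA with Hox proteins, read 8.66, 8.63 and 8.59 on the DMSO arrays and 8.21, 7.97 and 8.08 on the FR arrays. It was 1.45-fold lower in FR, without overlap (log2 SE 0.088, adjusted p = 0.00103). Its relative Meis2 had a change of 0.03 (adjusted p = 0.792), and the Pbx genes measured, Pbx2, Pbx3 and Pbx4, had changes of 0.02, 0.16 and 0.24, none called. Pknox1 had a change of -0.23 (adjusted p = 0.0813).

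Of 16 Polycomb genes, all above background, 1 rose and 1 fell (12.5%, beside 36.4% of all genes above background). Jarid2, an accessory subunit that helps bring Polycomb repressive complex to its targets, read 7.52, 7.53 and 7.40 on the DMSO arrays and 8.40, 8.24 and 8.22 on the FR arrays. It was 1.75-fold higher (log2 SE 0.088, adjusted p = 5.99e-05), a larger change than that of any Hox gene. Scmh1, a Polycomb protein that binds the other repressive complex, was 1.42-fold lower (adjusted p = 0.00347), a call lost without moderation of the variance (0.0504). The core genes Ezh2, Eed and Suz12 had changes of 0.12, 0.20 and -0.16, with adjusted p from 0.105 to 0.363. Of 10 Trithorax genes, all above background, 2 fell and none rose (20.0%, beside 36.4% of all genes above background called and 22.3% lower). Kdm6b, whose enzyme removes the histone mark set by Polycomb, fell by 0.32 (adjusted p = 0.0331). Psip1, whose protein tethers Kmt2a to chromatin, fell by 0.32 (adjusted p = 0.0481). Kdm6b did not pass without DMSO replicate 1 (0.0765) or 2 (0.128) or FR replicate 2 (0.051) or 3 (0.101). Its call was also lost with quantile normalization (0.0575) and ordinary variance (0.111). Psip1 did not pass without DMSO replicate 1, 2 or 3 (0.133, 0.127 and 0.0629) or FR replicate 2 (0.136, change -0.20) or 3 (0.0525). It was also lost with quantile normalization (0.152), cyclic loess (0.178), ordinary variance (0.163) and same-numbered arrays as blocks (0.0666). Kmt2a itself, the methyltransferase that keeps Hox genes active, had a change of -0.16 (adjusted p = 0.217).

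Among 9 upstream regulators 2 fell and none rose (22.2%, beside 14.5% of all genes lower and 27.9% called), both of them receptors for retinoic acid, the vitamin A product that sets Hox domains in the embryo. Rara read 8.19, 8.26 and 8.13 on the DMSO arrays and 7.78, 7.91 and 7.66 on the FR arrays and was 1.33-fold lower (adjusted p = 0.00673). Rarg fell by 0.30 (adjusted p = 0.0191) and did not pass without DMSO replicate 2 (0.0645) or 3 (0.0763) or FR replicate 3 (0.0528). Its call was also lost with quantile normalization (0.0573) and cyclic loess (0.0515). The remaining retinoic acid receptor gene, Rarb, was not above background and had a change of 0.21 (adjusted p = 0.0909), with every FR array above every DMSO array. The Cdx genes, which activate the 5′ Hox genes in the embryo, were near or within background, and Cdx1, Cdx2 and Cdx4 had changes of -0.10, 0.25 and 0.23, none called. Of 10 Hox-related homeobox genes Pdx1 was called (1 of 10, beside 27.9% of all genes), within the background range (change 0.27, adjusted p = 0.0493), and the call was lost in all of 13 alternatives (adjusted p of 0.0509 to 0.334).

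Other transcription factors that mark regions of the dermis and limb were measured beside the Hox genes. Of 29, 8 rose and 1 fell (31.0%, beside 27.9% of all genes, 13.4% higher and 14.5% lower), with a median change of 0.18. Of the 20 above background 6 rose and 1 fell, beside 14.1% higher and 22.3% lower among all genes above background. Prrx2, a limb and skin mesenchyme gene, read 8.69, 8.66 and 8.50 on the DMSO arrays and 9.25, 9.36 and 9.12 on the FR arrays and rose 1.54-fold (adjusted p = 0.000644). Twist1 and Twist2, mesenchymal factors of which Twist2 marks the dermis and is also among the fibroblast markers, rose 1.46-fold and 1.41-fold (adjusted p = 0.000813 and 0.00168). The fall was that of Shox2, a gene of the upper limb segment, which read 7.21, 7.31 and 7.13 on the DMSO arrays and 6.56, 6.42 and 6.61 on the FR arrays (1.60-fold lower, adjusted p = 0.000241). The other genes called higher were Foxd1, En1, Isl1, Msx1 and Sim2, the last pair within the background range. None of these 5 passed with the FR arrays shifted by the median Olfr change (adjusted p of 0.0554 to 0.0924). En1, Msx1 and Sim2 did not pass without DMSO replicate 1 (0.0516, 0.0679 and 0.06). Msx1 and Sim2 were also lost with quantile normalization (0.059 and 0.0584) and cyclic loess (0.0546 and 0.0561). With ordinary variance En1, Foxd1, Msx1 and Sim2 were lost (0.0709, 0.0792, 0.0598 and 0.0734). Tbx5, of the forelimb, and Pitx1 and Tbx4, of the hind limb, had changes of 0.12, 0.11 and 0.28, none called. The dorsal trunk gene Tbx15 had a change of -0.06 (adjusted p = 0.607).

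Of 8 genes measured that flank the clusters, 1 fell and none rose (12.5%, beside 27.9% of all genes). Skap2, an adaptor gene next to the 3′ end of Hoxa, read 7.01, 7.14 and 7.23 on the DMSO arrays and 6.12, 6.11 and 5.74 on the FR arrays and was 2.19-fold lower (log2 SE 0.11, adjusted p = 3.44e-05), while the nearest Hoxa genes measured, Hoxa2 and Hoxa3, were at background. Hibadh, Calcoco1, Mtx2 and Lnpk had changes of 0.08, 0.06, -0.04 and -0.24, none called. Of 9 non-coding RNA genes in the clusters 1 was called (11.1%). It was Hoxd3os1, antisense to Hoxd3, which fell by 0.29 on the brighter of its 2 probe sets (adjusted p = 0.0411), while the other gave 0.08 (adjusted p = 0.642, over all probe sets with 1 symbol). Hoxd3os1 did not pass without each DMSO array (0.125, 0.119 and 0.0584) and without FR replicate 1 (0.0909) or 2 (0.115). It was also lost with quantile normalization (0.187), cyclic loess (0.143), ordinary variance (0.11) and same-numbered arrays as blocks (0.0739). The microRNA genes Mir10a and Mir10b were at background.

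**Figure D4:**
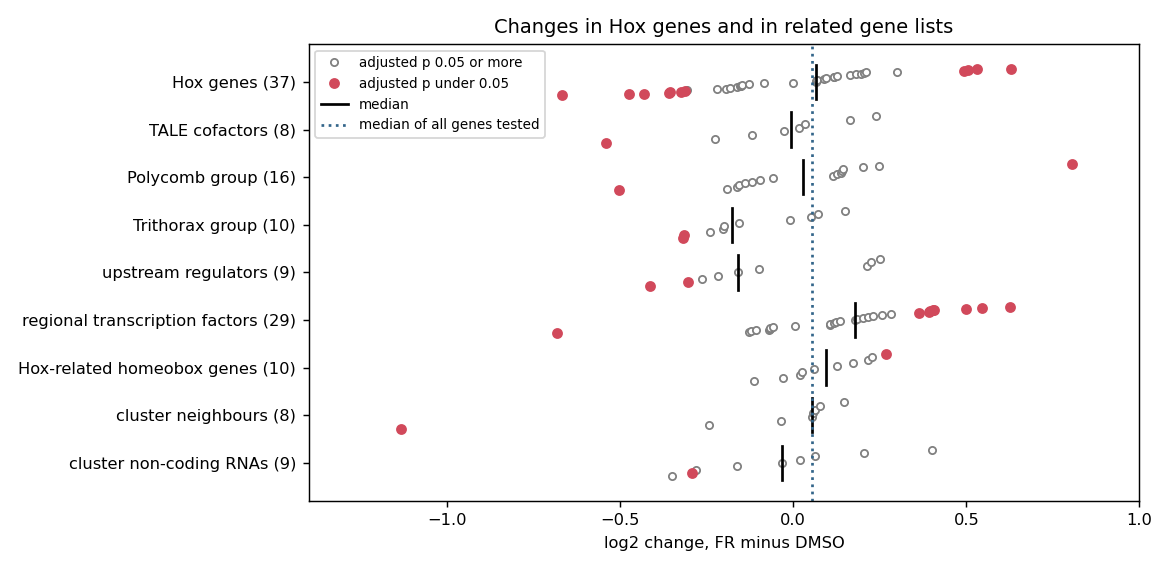
Change of each gene (log2 scale, FR minus DMSO, horizontal axis) in the Hox family and 8 related lists, 1 point per gene, filled where the adjusted p was under 0.05 (limma); black bars are list medians and the dotted line the median of all genes, 0.05. The Hox points spread to either side of the line, and the points farthest out are those of Skap2 on the left and Jarid2 on the right.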

How the data were processed

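Total RNA of 6 cultured dermal cell samples was measured on 1 array each, 3 DMSO and 3 FR, grouped by title. The deposited table holds log2 values made by the authors by RMA with the oligo package, per the submitters' processing notes, for 35556 probe sets, with 0 missing values. The genome build and the versions are not given in the sources used here. Of the probe sets, 21789 had 1 gene symbol in the platform annotation, 1621 several and 12146 none listed. The brightest probe set per gene was used, giving 19938 genes. The difference of FR minus DMSO was fitted by lmFit and eBayes of limma 3.58.1 (R 4.3.3), two-sided, with Benjamini-Hochberg adjustment over all genes, a threshold of 0.05 and no filter; the fit was tested on simulated data. Since the origin of the replicates is not stated, p-values cover the spread between these arrays alone, possibly a technical one, and the number of arrays limits the precision. The median standard error was 0.096. Arrays correlated at 0.996 within DMSO, 0.993 to 0.994 within FR and 0.972 to 0.978 between groups. Promoters came from RefSeq tables, and the planned comparison of homeodomain proteins was not made. Alternatives were other normalizations, filters, probe set choices, variance models, the replicate block and leaving out each array. The members, lists and tests were chosen with earlier results of these data known. All Hox genes were described, with values on each array for those called and their paralogues above background, and from other lists up to 4 called genes with the largest change; further genes, the AGGTCA motif and the fit over all probe sets were chosen after their values were seen.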

Additional observations from a re-analysis of the deposited data

How the results depend on the processing

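Hoxa10, Hoxb4, Hoxc5 and Hoxd10 kept their direction and their call in all 17 alternatives tested against a change of 0. Hoxa7, Hoxb2, Hoxd9 and Hoxd12 were not called with ordinary variance, and Hoxd12 was not tested with dim genes left out. The count of 11 changed Hox genes was 4 with ordinary variance (2 higher, 2 lower), 18 with FR shifted by the median Olfr change (14 lower) and 0 (0 higher, 0 lower) by limma's treat test against a change of 0.5, with 1 at an unadjusted p under 0.05; it was 8 to 11 without each array in turn, with 4 to 5 higher and 4 to 6 lower, the 4 without DMSO replicate 2. The count of higher genes was 7 with quantile normalization and 7 with cyclic loess. The replicate block gave 10 Hox calls, 9 of them shared (without Hoxb9, adjusted p = 0.0592, and Hoxc4, 0.055, and with Hoxb6, 0.0401), and 4977 calls over all genes in place of 5559; same-numbered arrays did not deviate together (correlations -0.073, 0.047 and -0.034), so the numbers were not taken as pairs. Genes changed in the 8 related lists numbered 19, 29 with the Olfr shift, 11 with ordinary variance and 13 to 22 without each array. The Hox genes above background were 28, and 24 to 34 under the alternatives.

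Genes that were not called changed sign, near 0 and uncalled, in some settings, and the cause was not tested. With quantile normalization Hoxa3 was at -0.011, Hoxb13 -0.051, Hoxc11 -0.073, Hoxc12 -0.068, Hoxc13 -0.042 and Hoxc9 0.0083. With cyclic loess Hoxa3 was at -0.0051, Hoxb13 -0.059, Hoxc11 -0.070, Hoxc12 -0.067, Hoxc13 -0.037 and Hoxc9 0.0040. With the Olfr shift Hoxa3 was at -0.014, Hoxa5 -0.073, Hoxb13 -0.072, Hoxc11 -0.075, Hoxc12 -0.071, Hoxc13 -0.046, Hoxc8 -0.052, Hoxd3 -0.021 and Hoxd4 -0.021, and with array weights Hoxa6 was at 0.0055. Without each array in turn Hoxa5 ran from -0.0034 to 0.12, Hoxa6 from -0.051 to 0.031, Hoxb13 from -0.0049 to 0.14, Hoxc11 from -0.061 to 0.18 and Hoxc12 from -0.027 to 0.17. Signal near that of Olfr genes limits what can be said of the 9 dim Hox genes.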
